A study of Mus musculus with 4 samples.

Results

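The epidermal growth factor receptor (EGFR) family was represented by 7 genes of the 31055 features on the deposited table, taken by symbol as a fixed list of 3 receptor genes (Egfr, Erbb2 and Erbb3) and 4 ligand genes (Areg, Ereg, Hbegf and Tgfa). All 7 members were found. The receptors are membrane tyrosine kinases that pair when a ligand binds and then signal to the growth machinery of the cell. Amphiregulin (Areg), epiregulin (Ereg), heparin-binding EGF-like growth factor (Hbegf) and transforming growth factor alpha (Tgfa) are made as membrane proteins, cut free by metalloproteases and bound by EGFR. ERBB2 has no known ligand of its own and serves as a partner, whereas ERBB3 binds neuregulins and has little kinase activity. In the lung these genes are known for roles in epithelial growth and repair.

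The data were single-cell RNA-seq counts of viable cells, sorted as DAPI-negative, from microdissected lung tumors of 4 female mice. All 4 mice carried Lkb1XTR/XTR and Rosa26LSL-tdTomato, had tumors started by intratracheal Lenti-Cre and grown for 16 weeks, and received 4 mg doses of tamoxifen for 2 weeks; their age was not in the labels used here. The 2 Restored mice also carried FLPo-ERT2, the tamoxifen-activated recombinase that removes the Cre-inverted gene trap from the Lkb1 XTR allele, and the 2 Non-Restored mice lacked it, so that Lkb1 stayed trapped. Cre reaches whichever cells the virus infects, and the tdTomato reporter marks recombined cells of any type.

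The counts formed 1 pooled matrix of 20351 cells with 58624795 unique molecular identifiers (UMIs, counted molecules) and a median of 1960 UMIs per cell. The files used here hold no link from a cell to its mouse, so Restored and Non-Restored mice could not be compared and no test or p-value is given. After filtering, 19488 cells were kept, of which 15510 were placed in a class by marker genes and 3978 (20.4%) stayed unassigned. Class names such as "fibroblast-like" stand for these marker gates, and 25 classes of at least 50 cells were used. Levels are given in CPM, the UMIs of a gene divided by all UMIs of the class and put on a common scale, followed by an exact Poisson 95% interval. Ratios of classes are log2 CPM ratios with an exact conditional 95% interval. All intervals cover counting error alone and treat each UMI as independent. They leave out the spread between cells, so they are too narrow where few cells hold most UMIs of a gene. They also leave out the spread between mice, whose unequal contributions to a class could also move a level. CPM values are 3′-end counts and are compared between classes for 1 gene, not between genes.

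The 835 epithelial-like cells, of which 98.7% held a TdTomato UMI, were split by their content of 10 alveolar type II (ATII) genes such as Sftpc, the surfactant protein C gene. Cells in which these genes made up 5% or more of UMIs were called ATII-high (624 cells), and the rest ATII-low (211 cells). A further 23 airway-like cells were kept apart. ATII-high cells were divided by a UMI of Hopx, an alveolar type I (ATI) marker, into Hopx+ (137 cells) and Hopx- (487 cells) cells. The name ATII-low describes only the cut: Sftpc was still present in 67.8% of these cells, at 6082 CPM compared with 115260 CPM in ATII-high cells. The 8 ATI markers checked were all higher in ATII-low cells, among them Ager at 2585 against 852 CPM and Clic5 at 601 against 109 CPM. TdTomato was at 5788 CPM in ATII-low and 5712 CPM in ATII-high cells.

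Of the 6 members whose position is given here, Ereg and Areg are neighbors on chromosome 5 of mm10, on the plus strand at 91074622 to 91093646 and 91139599 to 91148432. Tgfa lies on chromosome 6 at 86195223 to 86275719 (plus strand) and Erbb3 on chromosome 10 at 128567523 to 128589652 (minus strand). Egfr lies on chromosome 11 at 16752203 to 16918158, and Erbb2 on the same chromosome at 98412470 to 98437716, both on the plus strand. RefSeq promoter windows (GRCm38.p6, from 250 bases before to 50 bases after the start) were found for 4 of the 7 members. Areg and Tgfa are printed because they were the only ligands among these 4. Areg was undetected in 1 of 25 classes and Tgfa in 18. Capitals mark the cyclic AMP response element TGACGTCA, a site read by CREB-type factors. Both windows run 5′ to 3′ on the plus strand.
Areg, chr5:91139349-91139648: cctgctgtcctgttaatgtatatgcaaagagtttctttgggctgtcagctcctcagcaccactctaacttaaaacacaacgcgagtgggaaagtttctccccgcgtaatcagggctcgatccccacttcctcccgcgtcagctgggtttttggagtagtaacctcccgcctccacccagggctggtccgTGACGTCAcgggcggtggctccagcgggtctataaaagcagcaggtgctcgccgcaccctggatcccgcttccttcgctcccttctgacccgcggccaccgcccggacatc
Tgfa, chr6:86194972-86195271: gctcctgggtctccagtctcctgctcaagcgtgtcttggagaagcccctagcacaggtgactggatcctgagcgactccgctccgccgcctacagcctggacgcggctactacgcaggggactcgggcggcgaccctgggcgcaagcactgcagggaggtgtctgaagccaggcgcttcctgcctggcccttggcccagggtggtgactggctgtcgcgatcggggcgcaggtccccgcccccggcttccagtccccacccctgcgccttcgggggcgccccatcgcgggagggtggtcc
The element, searched on both strands, begins 61 bases before the Areg start, and these letters do not occur in the Tgfa, Egfr or Erbb2 window. Of 32851 windows of the same length, 1.79% held it. The AP-1 letters TGANTCA, which do not overlap the element in these windows, were in none of the 4 windows and in 7.81% of all windows. A match of letters describes the sequence and does not show that a factor is bound.

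The first question was which cells of the tumors held receptor transcripts. Egfr was sparse, with 108 UMIs in 104 kept cells. Most of its UMIs lay outside the epithelium: epithelial-like cells held 14.9% of the Egfr UMIs of gated cells, compared with 58.5% for Erbb2 and 73.2% for Erbb3. These shares depend on cell numbers, and epithelial-like cells were 835 of the 15510 gated cells. Per UMI, their Egfr level was 2.52-fold that of immune-like cells (1.29 to 4.58). Stromal-like cells, which are matrix-producing mesenchymal cells, had 44.6 CPM of Egfr (27.2 to 68.9; 20 UMIs in 18 of 129 cells), and epithelial-like cells had 3.95 CPM (2.16 to 6.63; 14 UMIs in 14 of 835 cells). The log2 ratio of 3.50 (2.44 to 4.59) corresponded to 11.3-fold.

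Fibroblast-like cells, the 101 stromal-like cells led by Dcn, Mgp and Col3a1, had 37.9 CPM of Egfr (20.7 to 63.6; 14 UMIs in 13 cells). This was above ATII-low cells at 10.6 CPM (4.28 to 21.9; 7 UMIs), with a log2 ratio of 1.83 (0.43 to 3.38), and above ATII-high cells at 2.42 CPM (0.975 to 4.996; 7 UMIs), with a log2 ratio of 3.97 (2.56 to 5.52). The remaining Egfr UMIs of stromal-like cells lay in 17 cells with no sub-gate (5 UMIs) and in 11 mural-like cells (1 UMI). Sftpc and Krt8, which mark epithelium, were at 51.4 and 16.2 CPM in fibroblast-like cells. With all cells brought down to 1000 UMIs each by random thinning, 3.09% of 97 fibroblast-like cells (0.642 to 8.77) had an Egfr UMI, and 0 of 1760 B-like cells did, which allows a share of up to 0.170%.

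Plasmacytoid dendritic-like cells, a rare immune class specialized in interferon production, had the highest Egfr level of the 25 classes. The level was 39.7 CPM (22.2 to 65.5; 15 UMIs in 13 of 122 cells), and it could not be told from that of fibroblast-like cells (log2 ratio of fibroblast over plasmacytoid dendritic -0.07, -1.23 to 1.08). B-like cells had 0 Egfr UMIs among 2081 cells. Against the limit of 3 UMIs that a count of 0 allows, plasmacytoid dendritic-like cells were at least 48.0-fold higher, and the conditional interval of the ratio, which also covers the counting error of the 15 UMIs, began at 34.4-fold. Type 2 dendritic-like cells stood at 2.90 CPM (1.25 to 5.71), with a log2 ratio of 3.78 (2.45 to 5.22) between these dendritic classes. In thinned cells the share with an Egfr UMI was 4.10% of 122 plasmacytoid dendritic-like cells (1.34 to 9.31) and 0.372% of 538 type 2 dendritic-like cells (0.0451 to 1.34).

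Erbb3 was also present in plasmacytoid dendritic-like cells, at 34.4 CPM (18.3 to 58.8; 13 UMIs in 11 cells), whereas Erbb2 had 0 UMIs there (up to 7.94 CPM at 3 UMIs). No cell of this class held UMIs of both Egfr and Erbb3, where 1.17 cells would be expected if the genes were independent. Siglech was found in 100% and Klk1 in 75.4% of cells of the class, but both are on its gating list, so this follows in part from the gate. Of the 8 epithelial markers, Epcam (50.3 CPM) and Cdh1 (45.0 CPM) were detected in it and the other 6, including Krt8 and Krt18, were at 0. Sftpc was at 52.9 CPM in the class, near its level in fibroblast-like cells. Of the T-list genes, Cd3e and Cd6 were at 0, and the levels of the others on that list are not given here.

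**Figure D1:**
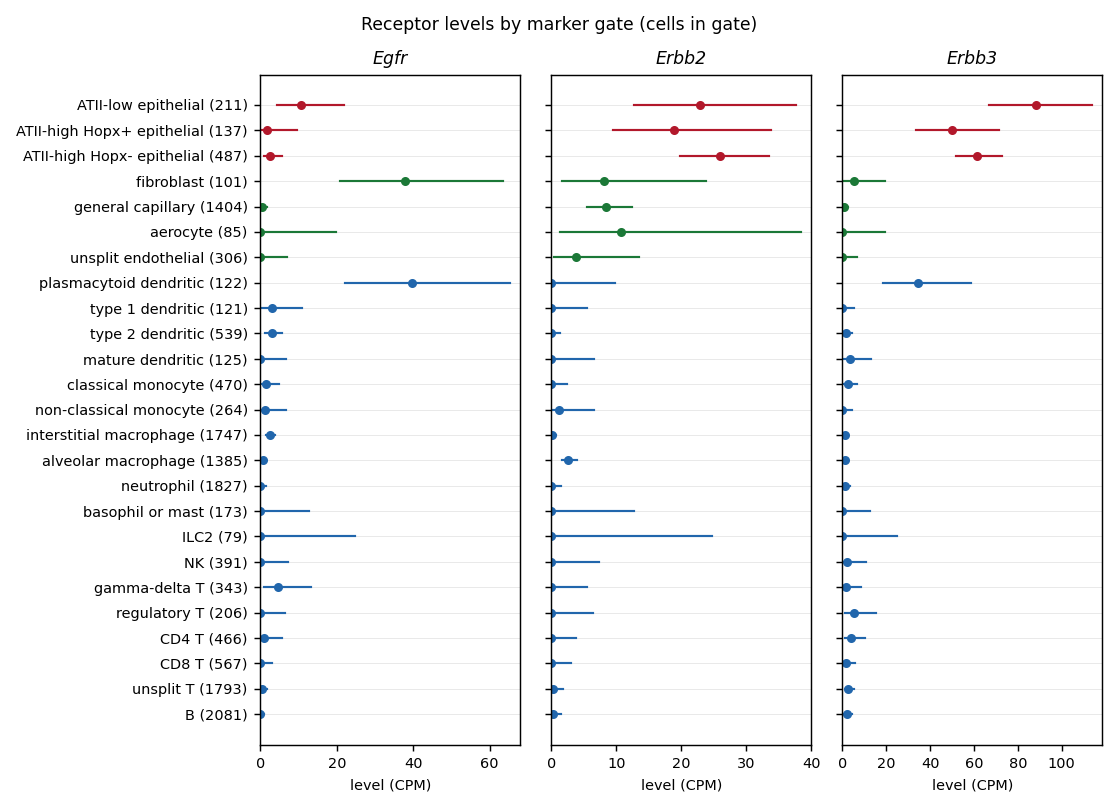
Level of each receptor gene (x axis, CPM, each panel with its own scale) in the 25 marker-gated classes of at least 50 cells (y axis, number of cells in parentheses). Points are the level of 1 pooled matrix and bars the exact Poisson 95% interval; red classes are epithelial, green stromal or endothelial and blue immune. Egfr peaked in plasmacytoid dendritic-like (39.7 CPM) and fibroblast-like cells (37.9 CPM), while Erbb2 and Erbb3 were highest in the epithelial classes.

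Erbb2 was led by the epithelium. Its level was 24.6 CPM in ATII-high (19.2 to 31.0; 71 UMIs) and 22.8 CPM in ATII-low cells (12.8 to 37.6; 15 UMIs), and the Hopx+ and Hopx- groups overlapped at 18.9 and 26.0 CPM. Stromal-like cells had 6.69 CPM (1.38 to 19.5; 3 UMIs), a log2 ratio of -1.86 to epithelial-like cells (-4.16 to -0.26). Endothelial-like cells had 7.97 CPM (5.41 to 11.3; 31 UMIs), which was below the epithelium (log2 ratio -1.61, -2.25 to -0.998) and 11.9-fold above immune-like cells (6.73 to 21.1).

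Immune-like cells as a whole had 0.672 CPM of Erbb2 (0.431 to 1.00; 24 UMIs in 22 of 12699 cells). Of these UMIs, 20 came from alveolar macrophage-like cells, the resident phagocytes of the airspace, at 2.58 CPM (1.58 to 3.99). Interstitial macrophage-like cells held 1 UMI, or 0.133 CPM (0.00338 to 0.744), and the log2 ratio of the macrophage classes was 4.28 (1.63 to 9.65). In 13 of the 25 classes no Erbb2 UMI was seen.

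Erbb3, the receptor of neuregulins, had the largest epithelial share of UMIs among the receptor genes. Its level was 88.2 CPM in ATII-low (67.0 to 114; 58 UMIs), 61.6 CPM in Hopx- (51.9 to 72.6) and 49.8 CPM in Hopx+ ATII-high cells (33.4 to 71.5), and neighboring intervals in this order overlapped. Plasmacytoid dendritic-like cells came next, above fibroblast-like cells at 5.41 CPM (log2 ratio of fibroblast over plasmacytoid dendritic -2.67, -5.86 to -0.52), which held 2 UMIs in 1 cell. Endothelial-like cells had 0.514 CPM (0.0623 to 1.86; 2 UMIs), a log2 ratio of -6.97 to epithelium (-10.0 to -5.10). In thinned cells an Erbb3 UMI was found in 9.36% of 203 ATII-low (5.73 to 14.2), 3.90% of 616 ATII-high (2.51 to 5.74) and 0.170% of 1760 B-like cells (0.0352 to 0.497).

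Between stromal-like and epithelial-like cells, 1 of the 7 members (Egfr) was at least 2-fold higher and 6 were at least 2-fold lower in stroma. Of all 11057 genes at 5 CPM or more in either class, 26% were that much higher and 17.4% that much lower. Among the ligands, stromal-like cells had 2 Areg UMIs and 0 Tgfa UMIs. Ereg was at 22.3 CPM in stroma against 79.6 CPM in epithelium (log2 ratio -1.84, -2.91 to -0.93), and Hbegf at 60.2 against 224 CPM (log2 ratio -1.90, -2.51 to -1.35). The median log2 ratio was -1.88 over the members and 0.21 over all genes.

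Next, the ligand genes were compared across classes. Areg, a ligand known both from epithelium and from tissue-repair lymphocytes, was the most widely detected member, with 4986 UMIs in 1406 kept cells. ATII-low cells had the highest level, 1192 CPM (1110 to 1279; 784 UMIs in 126 of 211 cells). Hopx+ ATII-high cells had 732 CPM (664 to 805) and Hopx- ATII-high cells 586 CPM (555 to 618). The interval of ATII-low cells stood clear of those of the other 24 classes of at least 50 cells. It overlapped that of the 23 airway-like cells kept apart, at 1030 CPM (855 to 1230). The 22 ATII-low cells with the most Areg held 52.3% of its UMIs in that class, a spread between cells that the interval does not cover.

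Some lymphoid classes lay in the same range. Regulatory T-like cells, Foxp3+ T cells that restrain immune responses, had 504 CPM of Areg (448 to 566; 291 UMIs in 91 of 206 cells). This was slightly below all ATII-high cells at 616 CPM (log2 ratio -0.29, -0.47 to -0.11), an order that turned with the mean of per-cell CPM (718 against 627 CPM). It was 7.01-fold above CD4 T-like cells at 71.9 CPM (log2 ratio 2.81, 2.43 to 3.21). CD8 T-like cells had 15.3 CPM (9.24 to 24.0). In thinned cells an Areg UMI was found in 29.6% of 186 regulatory T-like (23.1 to 36.7), 4.04% of 445 CD4 T-like (2.41 to 6.32) and 0.341% of 1760 B-like cells (0.125 to 0.741). Median depths were 2088.5 UMIs for regulatory T-like, 1749.5 UMIs for CD4 T-like and 1390 UMIs for B-like cells.

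Il1rl1 encodes the receptor for IL-33. Of the regulatory T-like cells, 73 held an Il1rl1 UMI and had 551 CPM of Areg (465 to 648), and 133 held none and had 465 CPM (393 to 547), so that the intervals overlapped. Without thinning, an Areg UMI was found in 58.9% of the first and 36.1% of the second group. Their median depths were 2927 and 1830 UMIs, and detection of an Il1rl1 UMI also depends on depth.

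Cells passing the gate for group 2 innate lymphoid cells (ILC2), sources of IL-5 and IL-13, had 609 CPM of Areg (491 to 748; 91 UMIs in 26 of 79 cells), an interval that overlapped that of regulatory T-like cells (log2 ratio of regulatory T over ILC2 -0.27, -0.62 to 0.08). This gate was mixed: 62 of its 79 cells also held a UMI of the 8-gene T list, Trbc2 was at 348 CPM and Cd3d at 194 CPM, and Foxp3 was seen in 12 cells. The gate does not separate type 2 helper T cells from ILC2. Cells without a T-list UMI had 287 CPM of Areg (138 to 529; 10 UMIs in 3 of 17 cells), and cells with one had 707 CPM (562 to 879; 81 UMIs in 23 of 62 cells).

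Among myeloid classes, interstitial macrophage-like cells, marked by C1q genes, had the highest Areg level at 66.5 CPM (60.7 to 72.6; 498 UMIs). These UMIs lay in 182 of 1747 cells, with up to 32 UMIs in 1 cell. Sftpc was at 279 CPM in this class. There were 238 Areg UMIs per 1000 Sftpc UMIs, compared with 7.60 in epithelial-like cells. Non-classical monocyte-like cells had 44.8 CPM of Areg (31.7 to 61.5), an interval that overlapped that of interstitial macrophage-like cells. Plasmacytoid dendritic-like and type 2 dendritic-like cells had 34.4 and 26.8 CPM. Alveolar macrophage-like cells were lower than interstitial macrophage-like cells, at 23.3 CPM (log2 ratio -1.51, -1.77 to -1.27). Neutrophil-like cells had 11.2 CPM (7.45 to 16.2), basophil or mast-like cells 10.3 CPM (3 UMIs), and type 1 dendritic-like cells had none (up to 4.47 CPM at 3 UMIs).

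Ereg, a close relative of Areg, had fewer sources. ATII-low cells had 113 CPM (88.3 to 141; 74 UMIs), and the Hopx+ and Hopx- ATII-high cells had 75.6 CPM (54.9 to 101) and 71.2 CPM (60.7 to 82.9), with overlapping intervals. Fibroblast-like cells came next at 27.1 CPM (12.98 to 49.8), from 10 UMIs in 5 cells. Alveolar macrophage-like cells had 17.6 CPM (14.7 to 20.8; 136 UMIs in 52 of 1385 cells). They were 12.0-fold above interstitial macrophage-like cells at 1.47 CPM (log2 ratio 3.58, 2.70 to 4.62). In 13 of the 25 classes, among them B-like, CD4 T-like and regulatory T-like cells, no Ereg UMI was seen.

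Alveolar macrophage-like cells had 362 Ereg UMIs per 1000 Sftpc UMIs, compared with 0.837 in epithelial-like cells, and 1.32 Areg UMIs per Ereg UMI, compared with 9.08. In this class 12 cells held UMIs of both Areg and Ereg. TdTomato was found in 95.2% of alveolar macrophage-like cells, at 2683 CPM, and in 27.6% of interstitial macrophage-like cells, at 137 CPM. When cells outside the epithelium with a TdTomato UMI were left out, 7 of the 163 Ereg UMIs of immune-like cells remained. That step left 66 of the 1385 alveolar macrophage-like cells, and the Ereg level in these 66 cells was 17.1 CPM (6.28 to 37.2; 6 UMIs).

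Hbegf, a heparin-binding ligand that is also released by blood vessels, added the endothelium to its sources. ATII-low cells had 348 CPM (305 to 396; 229 UMIs), Hopx+ ATII-high cells 258 CPM (218 to 302) and Hopx- ATII-high cells 180 CPM (164 to 199). General capillary-like cells, the endothelial class led by Gpihbp1, followed at 132 CPM (120 to 146; 408 UMIs in 292 of 1404 cells). The intervals of these 4 classes did not overlap. The general capillary level was 0.68-fold that of ATII-high cells (log2 ratio -0.57, -0.75 to -0.38).

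The other capillary type of the alveolus, aerocyte-like cells with Ednrb and Kitl among their leading genes, had 16.0 CPM of Hbegf (3.30 to 46.7), from 3 UMIs in 85 cells. General capillary-like cells were 8.28-fold higher (log2 ratio 3.05, 1.49 to 5.33). In thinned cells an Hbegf UMI was found in 11.0% of 1318 general capillary-like (9.36 to 12.8), 1.28% of 78 aerocyte-like (0.0325 to 6.93) and 0 of 1760 B-like cells (a share of up to 0.170%). Within immune-like cells the level was highest in neutrophil-like cells at 38.9 CPM (31.5 to 47.4; 97 UMIs), 4.16-fold above interstitial macrophage-like cells (3.03 to 5.74). Gamma-delta T-like cells had 27.0 CPM (16.0 to 42.7; 18 UMIs in 13 of 343 cells), compared with 2.05 CPM in CD4 T-like cells (log2 ratio 3.72, 1.65 to 6.87).

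Tgfa was the sparsest member, with 72 UMIs in 70 kept cells. ATII-low cells had 21.3 CPM (11.6 to 35.7; 14 UMIs) and ATII-high cells 10.7 CPM (7.30 to 15.2; 31 UMIs). Endothelial-like cells had 5.40 CPM (3.34 to 8.25; 21 UMIs in 21 cells), below epithelial-like cells (log2 ratio -1.23, -2.06 to -0.46). Only 2 Tgfa UMIs were found in the 12699 immune-like cells, 1 in a B-like and 1 in a gamma-delta T-like cell, and 18 of the 25 classes had none.

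**Figure D2:**
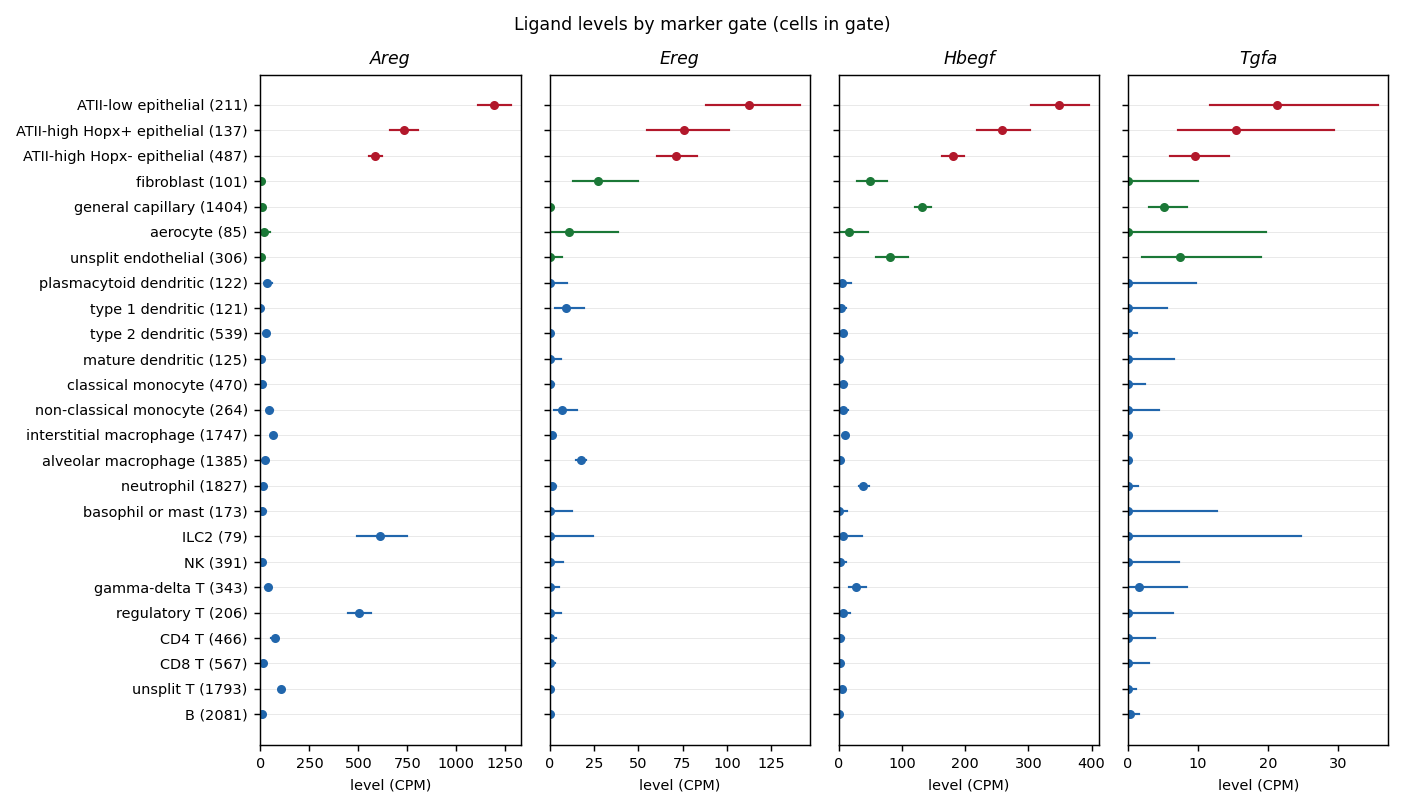
Level of each ligand gene (x axis, CPM, each panel with its own scale) in the 25 marker-gated classes (y axis, number of cells in parentheses); points are levels in the pooled matrix and bars exact Poisson 95% intervals, with epithelial classes in red, stromal and endothelial classes in green and immune classes in blue. All 4 ligands were highest in ATII-low cells. Outside the epithelium the highest levels were in ILC2-gated cells for Areg (609 CPM), in fibroblast-like cells for Ereg (27.1 CPM), in general capillary-like cells for Hbegf (132 CPM) and in endothelial-like cells without a sub-gate for Tgfa (7.43 CPM).

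Summed over all immune-like cells, the ligands were lower than in epithelial-like cells. The log2 ratio was -3.91 for Areg (-4.00 to -3.82), -4.12 for Ereg (-4.41 to -3.84), -4.92 for Hbegf (-5.13 to -4.72) and -7.82 for Tgfa (-10.9 to -5.89). Of the 6 members with 5 CPM or more in either class, all 6 were at least 2-fold lower in immune-like cells, which 20% of all 10810 such genes were, whereas 22.7% were at least 2-fold higher. Egfr fell under the 5 CPM limit (1.57 against 3.95 CPM; log2 ratio -1.33, -2.20 to -0.37). Because immune-like cells were numerous, they nevertheless held 1717 of the 4437 Areg UMIs of gated cells, and epithelial-like cells held 2561.

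The next question was how the members varied within the epithelium. Areg, Hbegf, Ereg, Erbb3 and Egfr were higher in ATII-low than in ATII-high cells, with intervals that excluded equal levels. Areg stood at 1192 against 616 CPM, a log2 ratio of 0.95 (0.83 to 1.08). For Hbegf the levels were 348 and 196 CPM (log2 ratio 0.83, 0.60 to 1.05), and for Ereg 113 and 72.0 CPM (0.64, 0.24 to 1.03). The receptor Erbb3 was at 88.2 against 59.2 CPM (0.57, 0.12 to 1.01). Egfr had the highest ratio, 2.13 (0.39 to 3.87), from 7 UMIs in each group. With the ATII limit at 10% the intervals of Egfr and Erbb3 included equal levels, and that of Erbb3 also did so without the 4 ATII-low cells rich in Scgb1a1, a club cell gene.

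The interval of Tgfa included equal levels (log2 ratio 0.99, -0.04 to 1.94), as did that of Erbb2 (-0.11, -1.02 to 0.71). Of the 7 members, 1 (Egfr) was at least 2-fold higher and 0 at least 2-fold lower in ATII-low cells, compared with 15.6% and 8.45% of all 10029 genes at 5 CPM or more in either group. The median log2 ratio was 0.83 over the members and 0.25 over all these genes. The intervals of Ereg and Erbb3 began at 0.24 and 0.12, below this median over all genes. The share of all genes whose interval excluded equal levels was not computed.

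The ATII genes themselves take up a share of the UMIs that differs between these groups by construction. With the ATII genes left out of the total, the log2 ratio was 0.72 for Areg, 0.59 for Hbegf and 0.41 for Ereg, and the interval of Erbb3 then included equal levels. ATII-low cells were shallower, with a median of 2601 UMIs compared with 4487.5 UMIs. In cells thinned to 1000 UMIs, Areg was detected in 44.8% of ATII-low (37.9 to 51.9) and 35.2% of ATII-high cells (31.5 to 39.1), and Hbegf in 21.7% (16.2 to 28.0) and 15.3% (12.5 to 18.3). Ereg was detected in 6.40% (3.45 to 10.7) and 6.17% (4.40 to 8.37), so its higher level in ATII-low cells was not seen in the share of cells. The 22 ATII-low cells with the most Ereg held 81.1% of its UMIs in that group. The corresponding Areg shares without thinning were 59.7% and 66.5%.

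Several other markers differed between these groups. Scgb1a1 was at 8571 CPM in ATII-low and 29.4 CPM in ATII-high cells, and 4 ATII-low cells held at least 10 UMIs of it. Scgb3a1, also checked as a club cell gene, was first among the leading genes of ATII-low cells. Its level is not given here, and leaving out those 4 cells does not bound the airway-like content of the class. The 5 immune markers summed to 138 CPM in ATII-low and 79.7 CPM in ATII-high cells, with Cd3e at 4.56 and 3.12 CPM. Of the early response genes, which are induced by tissue dissociation and by growth factors, Fos was at 2024 and 2080 CPM, Egr1 at 582 and 830 CPM and Atf3 at 748 and 536 CPM. The part of these genes in the ligand levels was not tested.

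**Figure D3:**
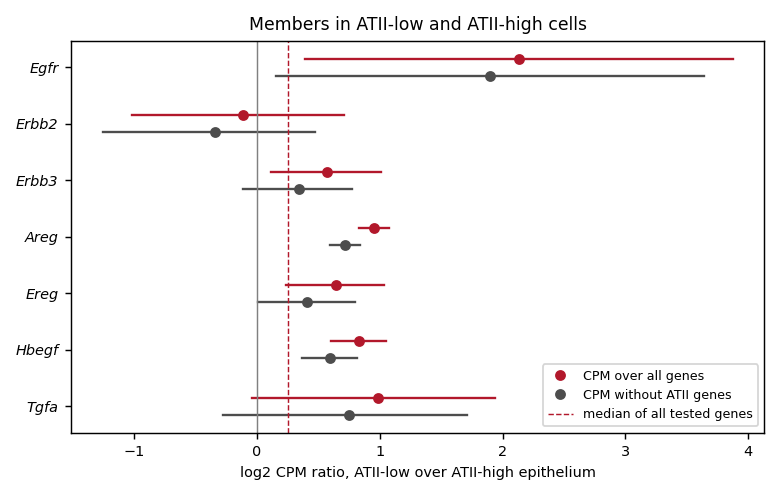
Log2 ratio of the level in ATII-low over ATII-high epithelial-like cells (x axis) for the 7 members (y axis), with exact conditional 95% intervals. Red points use the total of all genes and grey points the total without ATII genes; the dashed line is the median of all 10029 tested genes (0.25) and the grey line marks equal levels. Areg (0.95), Hbegf (0.83) and Ereg (0.64) kept intervals above 0 under both totals.

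A finer division by ATII content gave the same order for Areg. Its level was 1338 CPM (1227 to 1457) in the 140 epithelial-like cells with under 1% of UMIs from ATII genes. It was 968, 834, 712 and 548 CPM in the groups in between and 499 CPM (444 to 559) in the 117 cells at 20% or more. Without ATII genes in the total the first and last groups were at 1343 and 642 CPM. Ereg was at 138 CPM (104 to 180) in the first and 41.7 CPM (27.0 to 61.6) in the last group, and its levels in between did not follow the order of the groups. Hbegf was at 321 and 389 CPM in the pair of groups under 5% and between 171 and 238 CPM in the others. Erbb2 stayed between 15.4 and 28.3 CPM with overlapping intervals in all 6 groups. Of the 14 Egfr UMIs, 6 lay in the cells under 1% (15.1 CPM, 5.53 to 32.8).

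**Figure D4:**
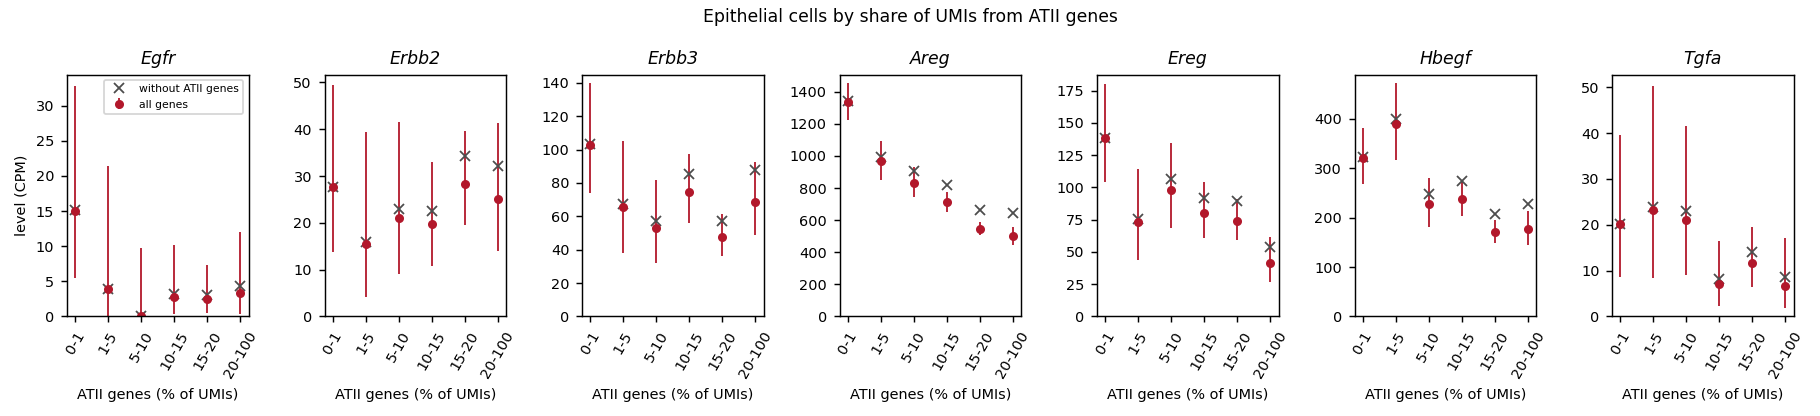
Level of each member (y axis, CPM) in epithelial-like cells divided by the share of UMIs from 10 ATII genes (x axis, % of UMIs). Red points with exact Poisson 95% intervals use the total of all genes, and crosses the total without ATII genes. Areg declined from 1338 to 499 CPM, whereas Erbb2 varied between 15.4 and 28.3 CPM with no order.

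Within ATII-high cells, the Hopx+ group had more Areg (732 against 586 CPM; log2 ratio 0.32, 0.16 to 0.48) and more Hbegf (258 against 180 CPM; 0.51, 0.23 to 0.79) than the Hopx- group. The intervals of the other 5 members included equal levels, for example Ereg at 75.6 and 71.2 CPM (0.09, -0.43 to 0.57). In thinned cells Areg was detected in 35.8% of Hopx+ (27.8 to 44.4) and 35.1% of Hopx- cells (30.8 to 39.5). Its higher level in Hopx+ cells was thus not seen in the share of cells. Hbegf was detected in 24.8% (17.8 to 32.9) and 12.5% (9.70 to 15.8). Median depths were 4100 UMIs in Hopx+ and 4550 UMIs in Hopx- cells, and Sftpc was lower in Hopx+ cells, at 100310 CPM, than in ATII-high cells as a whole.

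Receptor and ligand transcripts were found together in epithelial cells about as often as independent detection would give. Of 835 epithelial-like cells, 263 (31.5%) held a UMI of a receptor, 636 (76.2%) a UMI of a ligand and 208 (24.9%) both, compared with 24.0% if the detections were independent. Cells with both were deeper, with a median of 5163 UMIs compared with 4039 for all epithelial-like cells. Areg and Hbegf were seen together in 283 epithelial-like cells and Areg and Ereg in 140. Areg alone or with others was in 541 cells, Hbegf in 360 and Ereg in 160. The comparison with independent detection was made for any receptor with any ligand, not for these ligand pairs. Erbb2 and Erbb3 shared 19 cells, all ATII-high, where 66 of 624 cells held Erbb2 and 148 held Erbb3. Of the 211 ATII-low cells, which were shallower, 15 held Erbb2 and 45 held Erbb3. No expected count was computed for this pair, so the 0 shared ATII-low cells are not read as a difference. Regulatory T-like cells, by comparison, held a ligand UMI in 91 of 206 cells and a receptor UMI in 3. Fibroblast-like cells held a receptor UMI in 15 of 101 cells and a ligand UMI in 18, with both in 1 cell.

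Other genes of the pathway were taken from a list of 23. Erbb4, the remaining receptor of the family, and Nrg3 had 0 UMIs in all kept cells. Among other EGFR ligands, betacellulin (Btc) was nearly limited to epithelium, which held 97.3% of its UMIs in gated cells, at 20.3 CPM compared with 0.0280 CPM in immune-like cells. Egf had 0 UMIs in epithelial-like cells and its highest level in type 2 dendritic-like cells (7.61 CPM, 4.71 to 11.6).

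The neuregulins, ligands of ERBB3 and ERBB4, were divided between classes. Nrg1 was at 54.7 CPM in ATII-low (38.3 to 75.8) and 6.93 CPM in ATII-high cells (log2 ratio 2.98, 2.15 to 3.85). Mature dendritic-like and classical monocyte-like cells had 48.4 and 45.4 CPM of it. Nrg4 was led by alveolar macrophage-like cells at 41.6 CPM (37.2 to 46.4; 322 of the 368 UMIs in gated cells). Epithelial-like cells held 2 Nrg4 UMIs.

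Feedback inhibitors of the pathway also differed by compartment. Errfi1, which binds and inhibits EGFR, was at 241 CPM in ATII-high and 182 CPM in ATII-low cells (log2 ratio -0.40, -0.70 to -0.12). Spry2, a Sprouty inhibitor of receptor signaling, was at 126 CPM in epithelial-like and 5.52 CPM in immune-like cells, although basophil or mast-like cells had 199 CPM (151 to 257). Its relative Spry4 was led by aerocyte-like (160 CPM) and general capillary-like cells (138 CPM). Adam17, the sheddase that releases several of these ligands, was at 43.7 CPM in epithelial-like and 150 CPM in alveolar macrophage-like cells (141 to 159).

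Counted over the list, 17 of the 23 genes had 5 CPM or more in ATII-low or ATII-high cells, and 1 (Nrg1) was at least 2-fold higher and 2 (Shc1 and Spry4) at least 2-fold lower in ATII-low cells, beside 15.6% and 8.45% of all genes. In stromal-like over epithelial-like cells 4 of 18 were higher (Nrg2, Rhbdf1, Cblb and Spry4) and 3 lower (Btc, Nrg1 and Spry2), beside 26% and 17.4% of all genes. In immune-like over epithelial-like cells 4 of 17 were higher and 8 lower, beside 22.7% and 20% of all genes. The median log2 ratios of the list were 0.47, 0.06 and -0.34 in these comparisons, beside 0.25, 0.21 and 0.08 over all genes.

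Finally, for each member the 3 genes with the most similar levels were sought by Pearson r of log2(CPM + 10) over the 25 classes, among 10591 genes. The classes share 1 pooled library and differ in depth, and r is given as a description. For Egfr these were Clec11a (r = 0.86), Rab6b (0.85) and Sec24d (0.83), of which Clec11a was highest in fibroblast-like and the others in plasmacytoid dendritic-like cells. Erbb2 was most like AI661453, Plekhb1 and Grb14 (each 0.96). Erbb3 was most like Ptprf (0.97), Exph5 (0.96) and Ap1m2 (0.96). Igsf23 (0.90), Tjp3 (0.88) and Mrpl32 (0.83) were nearest to Areg, and Liph (0.95), Gm26569 (0.94) and Cdc42bpg (0.94) to Ereg. Hbegf was nearest to Gja1 (0.94), Mecom (0.93) and Nipal2 (0.92), and Tgfa to Arhgef28 (0.98), Mal (0.98) and Nipal2 (0.97). Among the members, Egfr had r of 0.20 with Erbb2, 0.45 with Erbb3 and 0.01 with Areg, while Erbb2 had 0.89 with Ereg and 0.87 with Hbegf.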

How the data were processed

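Chromium 3′ v3 libraries of viable tumor cells from 2 Restored and 2 Non-Restored mice were processed by the authors with Cell Ranger (version 3.0.2 in the file header) on mm10, to which GFP and TdTomato had been added. The authors deposited raw UMI counts for each gene in each cell. All mice are in 1 matrix whose cells carry only a column number, so cells could not be tied to mice, barcodes shared between libraries could not be counted, and the matrix counts as 1 sample. Depth per mouse was therefore unknown, and the median over cells was 1960 UMIs.

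Cells with at least 200 genes and not above the 98th percentile of genes (2713) or of the mitochondrial share over 13 genes (13.4%) were kept. In the matrix 52 cells had under 200 genes. The study's removal of tdTomato-positive cells outside the epithelium was an alternative here. Doublets were kept; at an expected rate of 6%, Scrublet in scanpy 1.11.5 marked 181 of 20299 cells (0.892%), and their removal was an alternative. Scrublet does not model a matrix of mixed libraries.

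A cell took the class, of 17 lists of 8 markers, with the most markers detected (at least 3, and strictly more than any other list). Sub-gates divided the epithelial, endothelial, stromal and T classes. The 5% ATII limit had 63 cells near it (3% to 7%), and class names are rebuilt here. UMIs were summed per class, with exact Poisson, conditional and Clopper-Pearson 95% intervals (Python 3.11.15, numpy 2.4.6, scipy 1.17.1). Where a share is called thinned, cells were first reduced to 1000 UMIs and shallower cells dropped. A count of 0 allows up to 3 UMIs. A gene was counted as higher or lower at a 2-fold ratio of levels among genes at 5 CPM or more in either class; no test across genes was run, because there was 1 sample.

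The members, the marker lists and the 23-gene pathway list were chosen with earlier results of these data known. Genes named are the members, the pathway list, and the 3 genes most like each member (20 CPM or more in at least 1 class, outside the marker lists); marker genes are named to describe the gates. The interval calculations were tested on simulated counts drawn from the Poisson model that the intervals assume. Those counts had no spread between cells or mice, so the test checks only the calculation. Alternatives were 500 genes per cell, no upper limits, 2 or 4 markers, a lead of 2 markers, Louvain clusters (Seurat 5.3.0, R 4.3.3; 25 dimensions, resolution 1.0), the removals above, mean per-cell CPM, totals without ATII genes, and ATII limits of 2% and 10%. Leaving out ATII-low cells with at least 10 Scgb1a1 UMIs was chosen after seeing the data. Positions come from GENCODE vM21 on mm10 and promoter windows from RefSeq (GRCm38.p6). The sequence and position of Hbegf, and a further allele shared by all mice, are not reported here.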

Additional observations from a re-analysis of the deposited data

How the results depend on the processing

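No paired analysis was possible because cells could not be tied to mice. Over the alternatives, 14 ratios gave 168 values, of which 157 stayed within the interval of the reported ratio and 11 moved outside it. None of the ratios whose interval excluded equal levels turned direction over these alternatives, but the Erbb2 ratio in ATII-low over ATII-high cells (-0.11) changed sign in 3 of them, to 0.35 with the mean of per-cell CPM, 0.0085 with an ATII limit of 2% and 0.0086 with Louvain clusters. With the ATII genes left out of the total, the log2 ratio was 0.72 for Areg and 0.59 for Hbegf (ATII-low over ATII-high) and -4.10 for Areg (immune over epithelial). With the mean of per-cell CPM it was 0.82 for Areg (ATII-low over ATII-high), -4.92 for Ereg and -4.45 for Hbegf (immune over epithelial). With TdTomato-positive cells outside the epithelium left out, the immune over epithelial ratios were -3.70 for Areg, -7.88 for Ereg and -4.70 for Hbegf. For Ereg that ratio was -4.52 with 4 markers and -4.62 with a lead of 2 markers. The interval of the Egfr ratio in ATII-low over ATII-high cells included equal levels with an ATII limit of 10%. The interval of the Erbb3 ratio did so with that limit, without ATII genes in the total and without the ATII-low cells rich in Scgb1a1, and that of Tgfa in 7 of 13 settings. Of 109 class levels recomputed, 7 moved outside their interval, among them Areg in regulatory T-like cells (481 to 718 CPM, the highest with the mean of per-cell CPM). Louvain clusters gave no ILC2 class. Egfr and Tgfa rest on 108 and 72 UMIs, so their levels in small classes are coarse, and counting intervals do not cover differences between cells or mice.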

Other observations

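Cells and classes outside the comparisons also held member transcripts. The 3978 unassigned cells, whose leading genes were immunoglobulin and hemoglobin genes, had 57.6 CPM of Areg (52.9 to 62.6; 549 UMIs), 7.45 CPM of Ereg (5.82 to 9.40; 71 UMIs, 15 of them in 1 cell) and 7.87 CPM of Hbegf (6.19 to 9.87; 75 UMIs). Their Sftpc level was 1718 CPM. The 23 airway-like cells had 1030 CPM of Areg (855 to 1230; 122 UMIs in 14 cells), 186 CPM of Hbegf (116 to 281; 22 UMIs) and 59.1 CPM of Erbb3 (23.8 to 122; 7 UMIs). Egfr and Erbb2 had 3 UMIs each in the airway-like cells (25.3 CPM, 5.22 to 74.0), and Ereg and Tgfa had 0. The 11 mural-like cells, led by Acta2 and Tagln, had 197 CPM of Hbegf (72.4 to 430; 6 UMIs in 3 cells), and the 29 larger-vessel-like cells 36.8 CPM (7.59 to 107; 3 UMIs). Cells removed by the filters held 724 of the 5710 Areg UMIs and 92 of the 427 Erbb3 UMIs of the matrix.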
